A study of Homo sapiens with 12 samples.

Results

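DHRS2, EDN2, C11orf53, PLA2G4C and TNFRSF9 are 5 of the 60609 annotated genes measured in NS-SV-AC, an immortalised human salivary gland cell line of acinar origin. They were picked by name because their transcript levels differed between cells given RES (resveratrol, a plant stilbene polyphenol) and cells given the solvent DMSO. Their levels under RES and DMSO are therefore given as a description, with no test. All 5 passed the filter used for testing, as did 17185 genes in all, and each reached a TPM (a transcript level corrected for length and scaled to the same total in each library) of 1 in all 12 libraries, so none passed only through the group in which it was high.

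The 12 libraries formed 6 groups of 2. Before transfection cells were given RES, DMSO or 2-CM, the nucleoside analogue 2'-C-methyladenosine, 24 h ahead and again at the time of transfection. RES and 2-CM were given at a dose of 20, read here as micromolar. What was transfected was either poly I:C, which mimics viral double-stranded RNA, for 14 h, or a control called depc, and growth lasted 48 h. Every group therefore consisted of the same line, transfected, and the DMSO depc group was the only one with neither compound nor double-stranded RNA. The labels do not say whether the 2 libraries of a group came from separate cultures, so the p-values below measure only the spread between these libraries, which may be technical.

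The genes belong to separate systems. DHRS2 encodes a short-chain dehydrogenase/reductase, a family that includes enzymes reducing carbonyl groups with NADPH. The DHRS2 protein is known to bind MDM2, the ubiquitin ligase of p53. EDN2 encodes the precursor of endothelin-2, a secreted peptide that is matured by converting enzymes such as ECE1 and acts on the receptors EDNRA and EDNRB. C11orf53, listed by RefSeq as POU2AF2, encodes a coactivator that works with the octamer-binding factor POU2F3 in tuft cells, the chemosensory cells of epithelia. PLA2G4C encodes a cytosolic phospholipase A2 that needs no calcium and releases fatty acids such as arachidonate from membranes. TNFRSF9, also called 4-1BB or CD137, is a receptor of the TNF receptor family, best known as a costimulator on activated T cells. Its ligand is TNFSF9, and it signals through TRAF adaptors to NF-kB.

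Sequence around the transcription start is shown for EDN2, the gene with the widest fold difference under poly I:C, and for TNFRSF9, whose window held the most kinds of motif. RefSeq promoter windows, 250 bases before to 50 after the start, matched 3 of the 5 genes on GRCh38.p14 (DHRS2, EDN2 and TNFRSF9). No window was matched under the names PLA2G4C and C11orf53. The EDN2 window is chr1:41484634-41484933 (minus strand) and the TNFRSF9 window chr1:7940790-7941089 (minus strand). Capitals mark matches of the motifs named below, other than the E-box.
EDN2: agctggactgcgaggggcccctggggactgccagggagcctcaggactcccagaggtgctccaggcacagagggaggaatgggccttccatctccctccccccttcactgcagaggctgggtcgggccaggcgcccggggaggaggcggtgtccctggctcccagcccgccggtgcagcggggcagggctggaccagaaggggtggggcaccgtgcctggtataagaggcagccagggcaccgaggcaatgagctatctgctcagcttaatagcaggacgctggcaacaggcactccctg
TNFRSF9: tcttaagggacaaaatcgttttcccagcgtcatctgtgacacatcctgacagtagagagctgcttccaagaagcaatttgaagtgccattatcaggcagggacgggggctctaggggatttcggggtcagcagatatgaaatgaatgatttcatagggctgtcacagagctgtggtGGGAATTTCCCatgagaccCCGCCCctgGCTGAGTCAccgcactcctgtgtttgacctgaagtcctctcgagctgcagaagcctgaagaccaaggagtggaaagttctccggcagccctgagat

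Motifs were searched on both strands as a TATA box (TATAAA), AP-1 (TGANTCA), a GC box (GGGCGG), an aryl hydrocarbon receptor core (GCGTG), an antioxidant response core (TGACNNNGC), an E-box (CANNTG), the octamer (ATGCAAAT) and, by name, NF-kB. The TNFRSF9 window held NF-kB letters at -74, 2 overlapping matches that share a near-palindrome, AP-1 letters at -44, and a GC box at -55, counted from the start as 0. An antioxidant response match at -46 overlapped the AP-1 letters, and an E-box stood at -220. This window holds the start of the TNFRSF9 transcript ENST00000377507.7, at 7940866, which averaged 8.53 TPM under RES. It does not reach the start of ENST00000615230.4, at 7943165, which averaged 8.54 TPM. NF-kB letters occur in 5.91% of the 35116 RefSeq promoter windows, AP-1 in 7.71%, the GC box in 45.0%, the antioxidant core in 13.3% and the E-box in 68.7%. The EDN2 window held none of these letters. The DHRS2 window, at a start whose 2 annotated transcripts had mean levels of 0 TPM under both DMSO and RES, had a TATA box at -29, a motif found in 11.5% of windows, and an E-box at -189. Such matches describe the letters only.

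DHRS2 was by far the most abundant of the 5 genes. Without poly I:C its level was 3189.6 and 3008 TPM under DMSO, 2666 and 2454 under 2-CM, and 790.04 and 803 under RES. After poly I:C it was 2616 and 2965 under DMSO, 2455 and 2572 under 2-CM, and 799.6 and 571 under RES. All 4 RES libraries lay below the 8 others, and the lowest of those 8 was over 3 times the highest RES library. DHRS2 ranked between 38 and 57 among all genes in the DMSO and 2-CM libraries and between 127 and 173 in the RES libraries, so it stayed a highly expressed gene. Mean TPM was 3.89-fold lower under RES than under DMSO without poly I:C and 4.07-fold lower with it. On the log2(TPM + 1) scale the differences were -1.96 and -2.04 (SE 0.16 each).

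EDN2, the endothelin-2 gene, was lower under RES and took middle values under 2-CM. Without poly I:C it stood at 17.2 and 16.7 TPM under DMSO, 9.54 and 14.1 under 2-CM, and 2.05 and 4.33 under RES. With poly I:C it stood at 20.5 and 24.4 TPM under DMSO, 7.99 and 9.48 under 2-CM, and 2.62 and 2.76 under RES. The 3 compounds did not overlap: every DMSO library was above every 2-CM library, and every 2-CM library above every RES library. The share of all genes with this order was not counted, so nothing is read from it. The RES mean was 5.31-fold lower than the DMSO mean without poly I:C and 8.33-fold lower with it, or -2.15 and -2.66 on the log2 scale (SE 0.30 each). Between 70.1 and 149 estimated reads supported EDN2 in each RES library.

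C11orf53, the tuft cell coactivator gene, separated the RES libraries from both other compounds. Its level without poly I:C was 15.3 and 16.7 TPM under DMSO, 15.8 and 20.5 under 2-CM, and 3.07 and 3.86 under RES. Poly I:C libraries had 18.6 and 21.1 TPM under DMSO, 18.7 and 20.2 under 2-CM, and 4.20 and 3.64 under RES. The DMSO and 2-CM libraries overlapped, whereas the 4 RES libraries were all far below them. Mean TPM was 4.62-fold lower under RES than under DMSO without poly I:C and 5.06-fold lower with it (-1.94 and -2.08 on the log2 scale, SE 0.22 each).

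PLA2G4C, the phospholipase gene, was higher under RES. Without poly I:C it had 1.66 and 2.03 TPM under DMSO, 2.76 and 2.65 under 2-CM, and 11.2 and 10.2 under RES. Its poly I:C libraries had 1.68 and 1.56 TPM under DMSO, 3.52 and 3.90 under 2-CM, and 11.02 and 7.89 under RES. The lowest RES library was about 2-fold above the highest 2-CM library, and every 2-CM library was above every DMSO library. How many other genes had this order was not counted. RES means were 5.79-fold and 5.82-fold above the DMSO means without and with poly I:C, or 2.04 and 1.98 on the log2 scale (SE 0.22 each).

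TNFRSF9, the 4-1BB receptor gene, was also higher under RES, with the widest spread between replicates. Levels without poly I:C were 3.57 and 1.61 TPM under DMSO, 2.91 and 2.09 under 2-CM, and 21.5 and 10.9 under RES. After poly I:C they were 4.41 and 2.83 TPM under DMSO, 6.01 and 5.18 under 2-CM, and 15.1 and 23.3 under RES. The RES libraries ranged from 10.9 to 23.3 TPM and all exceeded the other 8. Means under RES were 6.26-fold above DMSO without poly I:C and 5.32-fold above it with poly I:C, or 2.24 and 2.12 on the log2 scale (SE 0.40 each).

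**Figure D1:**
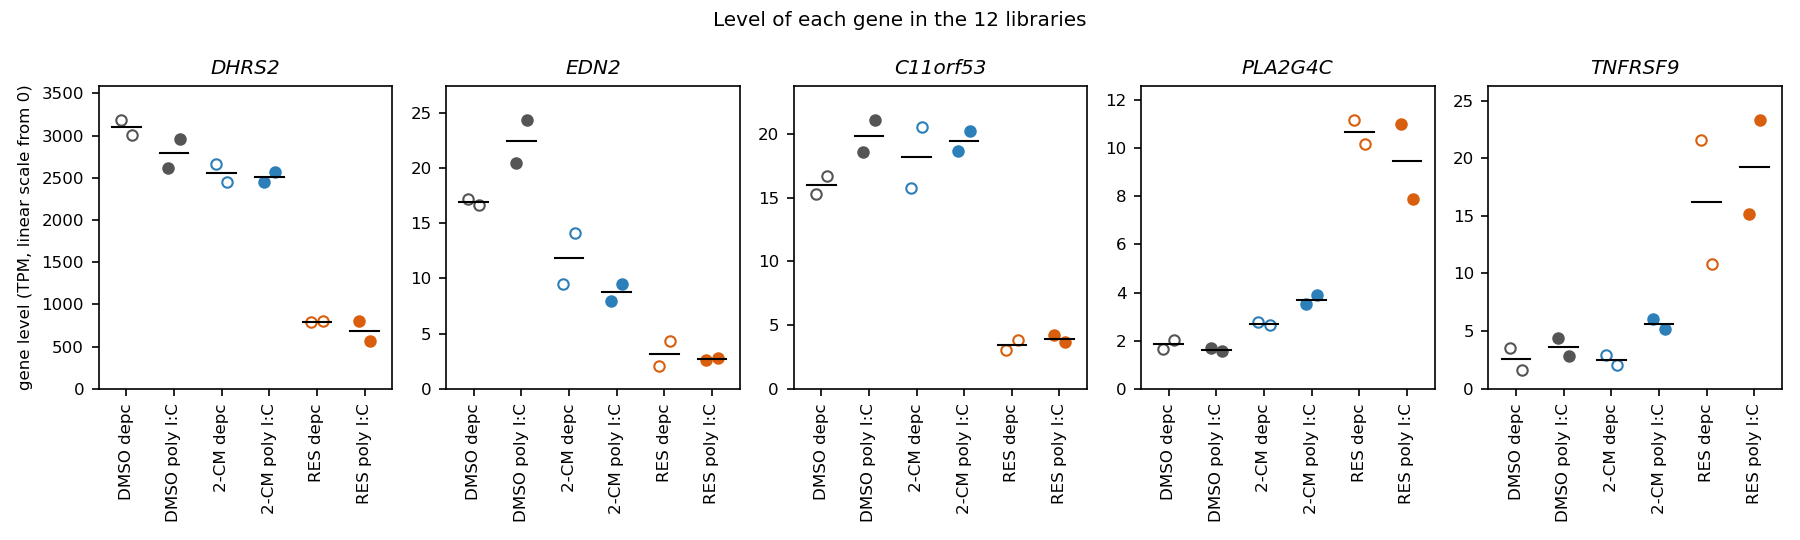
Gene level in TPM (linear axes from 0) of each gene in the 12 libraries, by group; open points are depc and filled points poly I:C libraries, and horizontal lines are group means (n = 2). The 4 RES libraries (orange) lie below all others for DHRS2, EDN2 and C11orf53 and above all others for PLA2G4C and TNFRSF9.

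The share of genes that separate in this way sets the scale for these descriptions. Over all tested genes, 1.10% had all 4 RES libraries below the 8 others and 3.04% had them above. Nothing is read from these shares for genes chosen by the same contrast. Over all genes, limma called 1.03% without poly I:C and 0.157% with it at an adjusted p under 0.05. The 177 calls without poly I:C were 144 higher and 33 lower, against 6 higher and 7 lower when libraries were scaled by the median of ratios. The calls of both transfections went to 0 without either DMSO depc library or either 2-CM poly I:C library. The median gene was 0.15 higher under RES without poly I:C and 0.28 higher with it on the log2 scale, far less than the differences of the 5 genes. Among 17185 genes ordered by the difference, EDN2 was the 10th lowest without poly I:C and the 7th lowest with it, DHRS2 the 12th and 11th, and C11orf53 the 14th and 10th. TNFRSF9 was the 11th and 13th highest, and PLA2G4C the 24th and 18th highest. The distance from the median gene and these ranks follow from the choice of the genes, so nothing is read from them.

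2-CM, the other compound, shares its DMSO controls with the contrasts that chose the genes, so its values too are a description. In mean TPM DHRS2 was slightly lower under 2-CM, by 1.21-fold without poly I:C and 1.11-fold with it. The libraries of the 2 compounds did not overlap in either transfection. With poly I:C its log2 difference was -0.15, and it ran from -0.96 to -0.06 over 22 alternatives of the processing. EDN2 was 1.43-fold and 2.57-fold lower. For both genes this meant lower 2-CM libraries in both transfections, which 0.884% of tested genes showed. PLA2G4C was 1.46-fold and 2.28-fold higher, a pattern of higher 2-CM libraries in both transfections that 10.9% of genes shared. On estimated reads, however, the PLA2G4C libraries of the 2 compounds overlapped with poly I:C, and the log2 difference there was 0.26 in place of 0.84. C11orf53 overlapped between 2-CM and DMSO in both transfections, with log2 differences of 0.16 without poly I:C and -0.03 with it. TNFRSF9 overlapped without poly I:C (0.01) and was higher in both 2-CM libraries with it (0.53), as were 70.4% of all genes.

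In the poly I:C libraries the 2-CM values need the shift of all genes beside them. The median gene was 0.59 higher under 2-CM than under DMSO there on the log2 scale, and 0.12 lower without poly I:C. Relative to that median, EDN2 was lower by -1.85, DHRS2 by -0.73 and C11orf53 by -0.61, while PLA2G4C was 0.26 higher and TNFRSF9 at -0.05. RES and 2-CM also differed directly: with poly I:C the log2 difference of RES from 2-CM was -1.89 for DHRS2, -1.39 for EDN2, -2.06 for C11orf53, 1.14 for PLA2G4C and 1.59 for TNFRSF9, beside a median gene at -0.35. Without poly I:C it was -1.68, -1.65, -2.10, 1.66 and 2.23 in the same order, beside a median gene at 0.34.

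**Figure D2:**
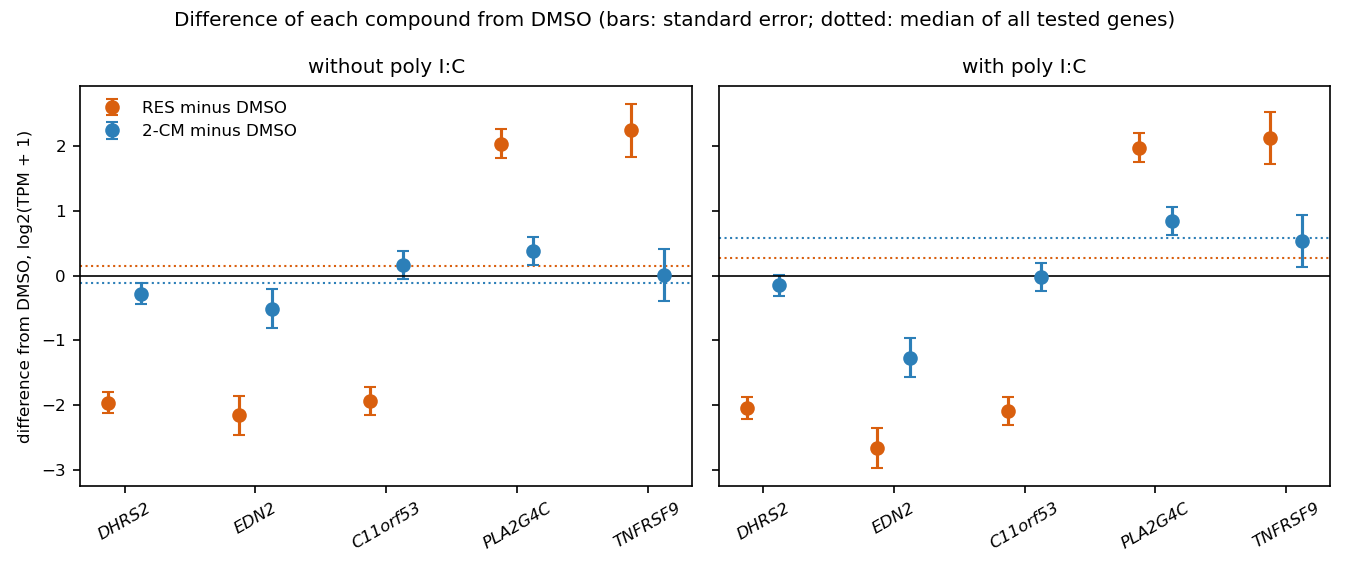
Log2(TPM + 1) difference of RES (orange) and 2-CM (blue) from DMSO for each gene, without poly I:C (left) and with it (right); bars are standard errors of the limma fit and dotted lines the median of all tested genes. RES differences lie between -2.66 and -1.94 or between 1.98 and 2.24, and the 2-CM difference farthest from 0 is that of EDN2 with poly I:C at -1.27.

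Poly I:C against depc was tested under each compound. This contrast did not choose the genes, but the libraries under DMSO and RES did. Only the 2-CM group means come from other libraries. The transfection labels held: OAS1, IFIT1 and MX1, interferon-induced sensors and effectors of viral RNA, stood between 1.06 and 19.4 TPM in the depc libraries and between 44.5 and 446 TPM in the poly I:C libraries. None of the 5 genes was called by limma at an adjusted p under 0.05 under any compound. Of all tested genes 4.08% were called in DMSO-treated, 49.3% in 2-CM-treated and 0.442% in RES-treated cells. The 2-CM count, 8475 genes, was far lower in fits without 1 of its 4 libraries. It was 649 with all libraries but no filter on low genes. At an unadjusted p under 0.05, TNFRSF9 under 2-CM was the only one of the 15 tests to pass, beside 19.7%, 60.9% and 14.0% of all genes.

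Under DMSO, TNFRSF9 and EDN2 had the largest estimates, 0.40 (95% confidence interval -0.52 to 1.32, limma adjusted p = 0.698) and 0.38 (-0.31 to 1.07, adjusted p = 0.582). Both EDN2 libraries and both C11orf53 libraries with poly I:C were above those without it, and both DHRS2 libraries below, as for 11.5% and 33.4% of all genes. C11orf53 was at 0.29 (-0.20 to 0.78), PLA2G4C at -0.12 (-0.62 to 0.39) and DHRS2 at -0.15 (-0.53 to 0.22), all without a call. DHRS2 and PLA2G4C changed sign under other scalings of the libraries.

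Under 2-CM, TNFRSF9 stood at 2.91 and 2.09 TPM without poly I:C and 6.01 and 5.18 TPM with it, an estimate of 0.92 (0.0012 to 1.84) with an unadjusted p of 0.0498 and a limma adjusted p of 0.0818. It was called in a limma fit of only the 2-CM libraries (adjusted p = 0.00799), as were 11850 of 17185 genes, and with a covariate built from the replicate differences (adjusted p = 0.000431), as were 12902. Its estimate was 0.42 with upper-quartile scaling (limma adjusted p = 0.253) and 0.25 with median-of-ratios scaling (adjusted p = 0.443). EDN2 went the other way, at -0.38 (-1.07 to 0.31, adjusted p = 0.299), with both poly I:C libraries below both depc libraries, as for 23.9% of all genes. PLA2G4C stood at 0.35 (-0.16 to 0.85), C11orf53 at 0.11 (-0.38 to 0.59) and DHRS2 at -0.03 (-0.40 to 0.35). Here too the median gene was displaced, by 0.61, and relative to it TNFRSF9 was 0.31 higher and EDN2, DHRS2, C11orf53 and PLA2G4C lower by -0.99, -0.64, -0.51 and -0.27. With median-of-ratios scaling EDN2 was called at -1.15 (limma adjusted p = 0.0496), as were 7522 of 17185 genes, and C11orf53 and PLA2G4C turned negative.

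The authors' deposited table for 2-CM, made with another normalisation, gave EDN2 a log2 fold change of -1.35 (adjusted p = 4.93e-05), DHRS2 -0.84 (adjusted p = 8.62e-08), C11orf53 -0.75 (adjusted p = 0.00553) and PLA2G4C -0.95 (adjusted p = 0.0336). TNFRSF9 in the authors' deposited table was at -0.02 (adjusted p = 0.975). Thus 4 of the 5 passed in that table, in which 46.4% of genes with an adjusted p did. C11orf53, PLA2G4C and TNFRSF9 differ in sign between the table and the TPM fit, and DHRS2 and EDN2 are negative in both. In the authors' deposited tables for DMSO and RES none of the 5 had an adjusted p under 0.05, beside 1.25% and 0.363% of genes.

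Under RES, the poly I:C and depc libraries of all 5 genes overlapped, and 30.2% of all genes did not overlap. Both sets of RES libraries were used in choosing the genes, so nothing is read from that overlap. Estimates ran from -0.24 for DHRS2 (-0.61 to 0.14, limma adjusted p = 0.588) to 0.28 for TNFRSF9 (-0.64 to 1.20, adjusted p = 0.800). C11orf53 was at 0.14, EDN2 at -0.13 and PLA2G4C at -0.18. The interval of EDN2 ran from -0.81 to 0.56 and that of PLA2G4C from -0.68 to 0.33. Responses within these intervals could not be told apart from 0 with 2 libraries a group.

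The poly I:C response under 2-CM was also set against that under DMSO. The DMSO libraries were among those used to choose the genes. None of the 5 differed by limma, and 0.0116% of genes did, while 29.7% had an unadjusted p under 0.05 and none of the 5. EDN2 had the largest difference, -0.76 (-1.73 to 0.21, adjusted p = 0.231), since its libraries moved up under DMSO and down under 2-CM. TNFRSF9 was at 0.52 (-0.78 to 1.82), PLA2G4C at 0.46 (-0.25 to 1.17), C11orf53 at -0.19 and DHRS2 at 0.13, beside a median gene at 0.68. With median-of-ratios scaling TNFRSF9 was at -0.31, PLA2G4C at -0.30 and DHRS2 at -0.92, and DHRS2 was also negative with FPKM, upper-quartile scaling and estimated reads. The response under RES was not tested against DMSO because the genes were chosen for differing in both transfections.

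**Figure D3:**
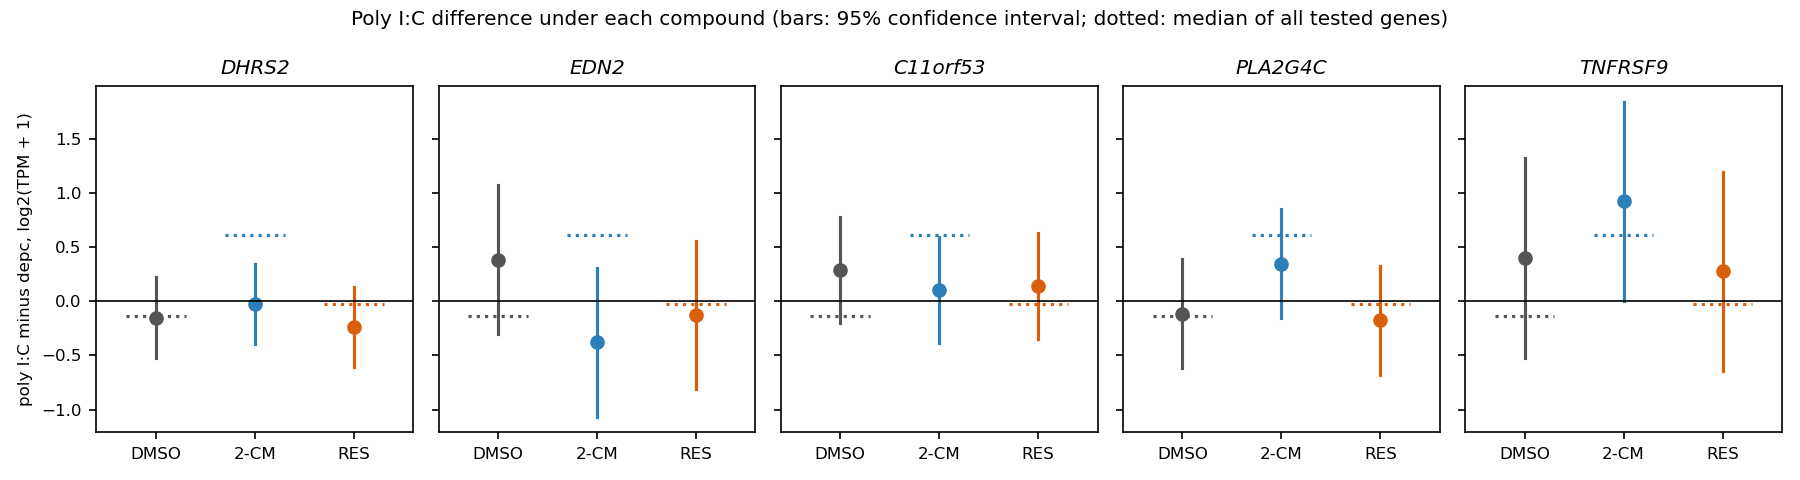
Poly I:C minus depc on the log2(TPM + 1) scale for each gene under DMSO (grey), 2-CM (blue) and RES (orange); bars are 95% confidence intervals of the limma fit and short dotted lines the median of all tested genes under that compound. The interval of TNFRSF9 under 2-CM starts just above 0, at 0.0012, and the other 14 intervals include 0.

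The annotated transcripts behind each gene level differed in how well they could be separated. DHRS2 spans chr14:23630115-23645639 (plus strand, hg38) and had 3 leading transcripts. ENST00000250383.10 (1705 nt, 9 exons) averaged 1576 TPM under DMSO and 341 under RES, ENST00000556701.5 (3157 nt) 841 and 242, and ENST00000344777.11 (1678 nt) 365 and 104. All 3 were lower under RES. The share of ENST00000250383.10 lay between 45.8% and 59.6% in the DMSO and 2-CM libraries and between 21.2% and 54.9% in the RES libraries, the lowest in the library of RES with poly I:C, replicate 2, that also had the lowest DHRS2 level. EDN2 (chr1:41478775-41484683, minus strand) was mostly ENST00000372587.5, at 85.2% to 100% of its level. C11orf53 (chr11:111245726-111286401, plus strand) had all of its level in ENST00000280325.6 (1342 nt) in every library.

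TNFRSF9 (chr1:7915894-7943165, minus strand) was split between ENST00000377507.7 (1923 nt) and ENST00000615230.4 (5970 nt), which start at different positions, 7940866 and 7943165. Under RES both averaged 8.53 and 8.54 TPM, against 1.45 and 1.49 TPM under DMSO, so neither accounted alone for the higher level. In DMSO depc replicate 2 the whole level was assigned to the longer one. That library held 6.75 RPM of the gene (estimated reads scaled to the library total, with no length correction), beside 8.42 RPM in replicate 1, whereas their TPM values, 1.61 and 3.57, stood farther apart. On the RPM scale TNFRSF9 ran from 6.07 to 11.5 in the DMSO and 2-CM libraries and from 28.9 to 59.0 in the RES libraries.

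PLA2G4C (chr19:48047843-48110817, minus strand) had 24 annotated transcripts, and their shares varied widely between replicates. ENST00000599921.6 (2486 nt) took 0% to 75.8% of the level under DMSO and 45.3% to 71.6% under RES. The mean transcript length weighted by TPM was 1204 and 1324 nt in the 2 libraries with 2-CM and poly I:C and between 1765 and 2152 nt in the other 10. Its RPM, which does not depend on that assignment, was 2.56 and 3.21 in those 2 libraries, 2.14 and 2.70 under DMSO with poly I:C, and 16.3 and 10.3 under RES with poly I:C. On that scale the RES libraries, from 10.3 to 16.3, again exceeded all others, from 2.13 to 3.70, but 2-CM and DMSO overlapped with poly I:C. Fitted to estimated reads with limma-voom, the log2 difference of RES from 2-CM with poly I:C was 2.18 in place of 1.14, and that of 2-CM from DMSO 0.26 in place of 0.84.

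**Figure D4:**
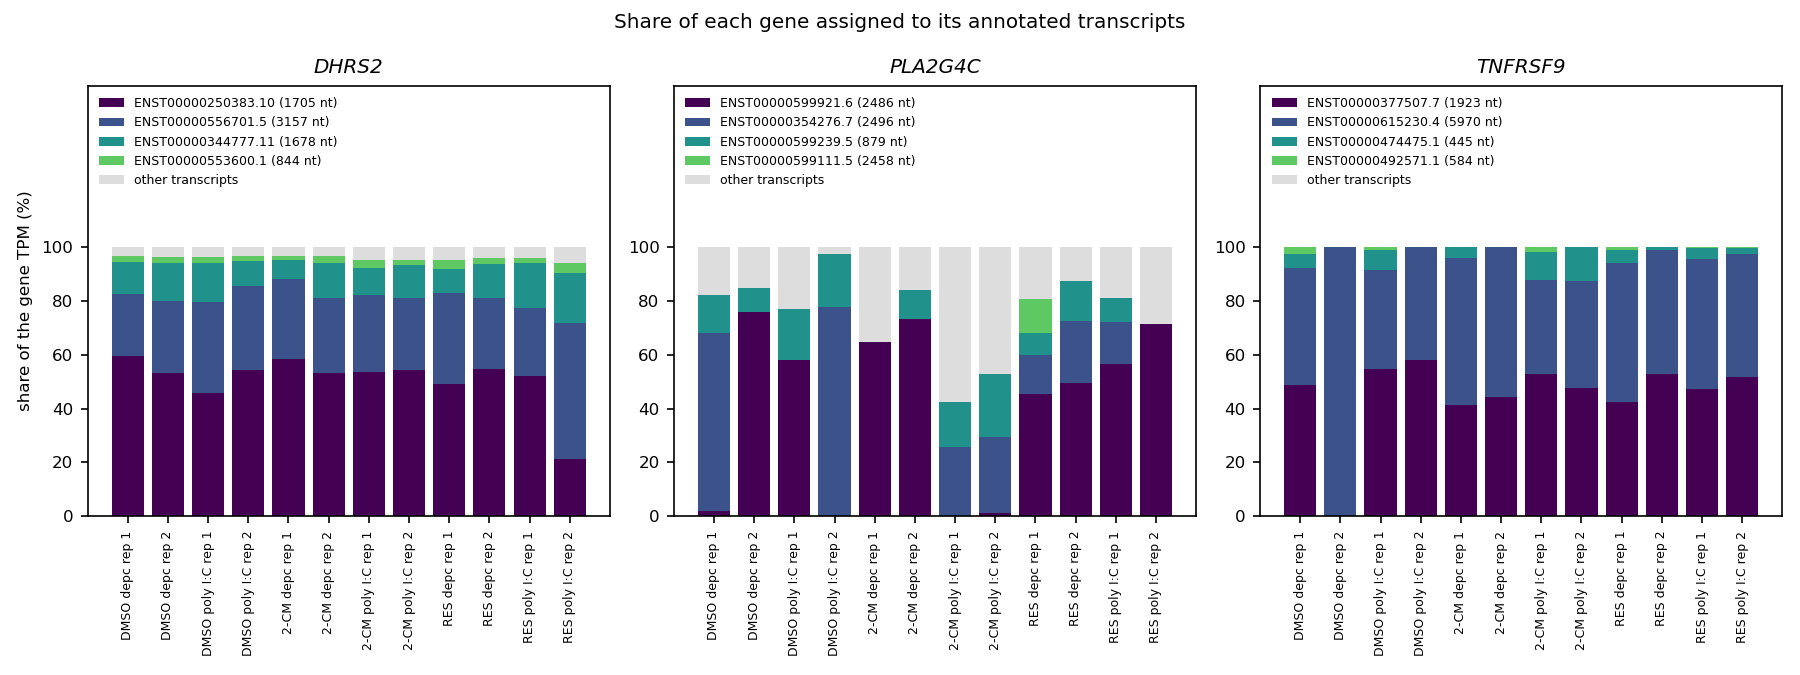
Share of the gene TPM (percent) assigned to the 4 most abundant annotated transcripts of DHRS2, PLA2G4C and TNFRSF9 in each of the 12 libraries, with the rest in light grey. TNFRSF9 in DMSO depc replicate 2 is assigned wholly to the 5970 nt transcript, and PLA2G4C shares scatter between replicates.

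Since no strand option was given in counting, reads from a gene and its antisense partner may not all have been told apart. PLA2G4C-AS1, antisense within PLA2G4C, was listed at 0 in all 8 DMSO and 2-CM libraries and at most at 0.272 TPM under RES, and AL009183.1, antisense within TNFRSF9, was listed at 0 in all 12. The nearest tested gene on each side of each member was not called under RES in either transfection. For DHRS2 these were JPH4 and DHRS4-AS1, 51.3 and 293 kb away. For EDN2 they were FOXO6 and HIVEP3, for C11orf53 LINC02550 and COLCA2, for PLA2G4C ELSPBP1 and LIG1, and for TNFRSF9 UTS2 and PARK7. LINC02550 was at 1.45 without poly I:C (limma adjusted p = 0.0693) and 0.53 with it (adjusted p = 0.521), opposite in sign to C11orf53. COLCA2, 12.2 kb from C11orf53 on its other side, was at -0.36 and -0.54. ELSPBP1 was at -0.95 and -0.49 (limma adjusted p = 0.0990 and 0.427), opposite in sign to PLA2G4C. UTS2 was at 1.06 and 0.37 (limma adjusted p = 0.161 and 0.674), of the same sign as TNFRSF9. The other neighbours lay between -0.31 and 0.39.

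The pathway partners of the 5 genes were examined through 8 lists with 96 genes, of which 67 passed the filter. In RES against DMSO 1 was higher and 0 lower without poly I:C by limma, and 0 were called with it. Of all tested genes 1.03% and 0.157% were called. At those shares lists of this size hold few calls or none, so nothing is read from these counts or from those of single lists below. The gene called was RDH5, a retinol dehydrogenase of the same enzyme superfamily as DHRS2. It stood at 1.07 and 1.21 TPM under DMSO and 3.23 and 3.79 under RES without poly I:C (1.07, SE 0.19, adjusted p = 0.0460). The call was lost, with all others of that contrast, without either DMSO depc library, without either 2-CM poly I:C library, and when only the groups compared were fitted. Its poly I:C libraries had 1.97 and 1.42 TPM under DMSO and 2.76 and 2.65 under RES (0.47, adjusted p = 0.340). DHRS4, a close relative of DHRS2 with near-identical copies nearby, was at 0.26 and 0.56 without a call. The 14 tested genes of the dehydrogenase and retinoid list had medians of 0.27 and 0.45.

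For EDN2, the receptor gene EDNRB was listed at 0 in every library and EDNRA did not exceed 1.15 TPM. The converting enzyme gene ECE1, named after its values were seen, was abundant at 35.1 to 80.6 TPM. The endothelin list, 4 of 7 tested, had 0 calls and medians of 0.14 and 0.14, at or below those of all genes. For C11orf53, the partner gene POU2F3 was listed at 0 in all DMSO and 2-CM libraries and reached at most 0.168 TPM under RES. Transcripts of C11orf53 were thus present where those of POU2F3 were barely detected. The list of octamer factors and tuft cell genes, 4 of 13 tested, had 0 calls and medians of -0.22 and -0.08.

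For PLA2G4C, the calcium-dependent relative PLA2G4A was at -0.87 without poly I:C (SE 0.70, limma adjusted p = 0.705) and -0.43 with it (adjusted p = 0.805), with libraries of 1.33 to 8.42 TPM under DMSO and RES without poly I:C. The arachidonate list, 11 of 22 tested, had 0 calls and medians of -0.04 and 0.08. Its lowest estimate with poly I:C and without it, named after its values were seen, was ALOX5AP, the activating protein of 5-lipoxygenase, at -1.26 in both (limma adjusted p = 0.0571 and 0.0839). For TNFRSF9, the ligand gene TNFSF9 was at 13.5 and 12.8 TPM under DMSO and 20.8 and 25.8 under RES without poly I:C (0.77, SE 0.26, adjusted p = 0.189). Its poly I:C libraries were at 12.5 and 17.2 TPM and 23.6 and 14.9, which overlap (0.34, adjusted p = 0.630). Among 13 tested genes of the TNF receptor list 0 were called, with medians of 0.40 and 0.34.

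The list of NF-kB subunits and inhibitors had 0 calls among 8 genes, with medians of 0.51 and 0.60 beside 0.15 and 0.28 for all genes. Its 2 largest, named after their values were seen, were RELB at 1.30 and 1.53 (adjusted p = 0.0784 and 0.0821) and NFKB2 at 1.15 and 1.25 (adjusted p = 0.0574 and 0.0776). MDM2, the partner of the DHRS2 protein, was at -0.11 and 0.74 with an SE of 0.62 and without a call. The p53 list (6 tested, medians 0.24 and 0.58) and the aryl hydrocarbon receptor list (7 of 8 tested, medians -0.73 and -0.11) had 0 calls as well. Single genes of these lists had large estimates without a call, and are named after their values were seen. CYP1B1, a monooxygenase gene induced by the aryl hydrocarbon receptor, was at -2.43 without poly I:C (SE 0.66, limma adjusted p = 0.114) and -0.91 with it (adjusted p = 0.613). GDF15, a stress-induced cytokine gene, was at 1.54 and 1.61 (adjusted p = 0.0571 and 0.0806). With poly I:C under 2-CM, where 49.3% of all genes were called, 25 of the 67 list genes were higher and 10 lower, a count that belongs to calls which fell to 37 to 46 over all genes without 1 of the 2-CM libraries. Under DMSO 1 list gene was higher and 0 lower, and under RES 0 were called, beside 4.08% and 0.442% of all genes.

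**Figure D5:**
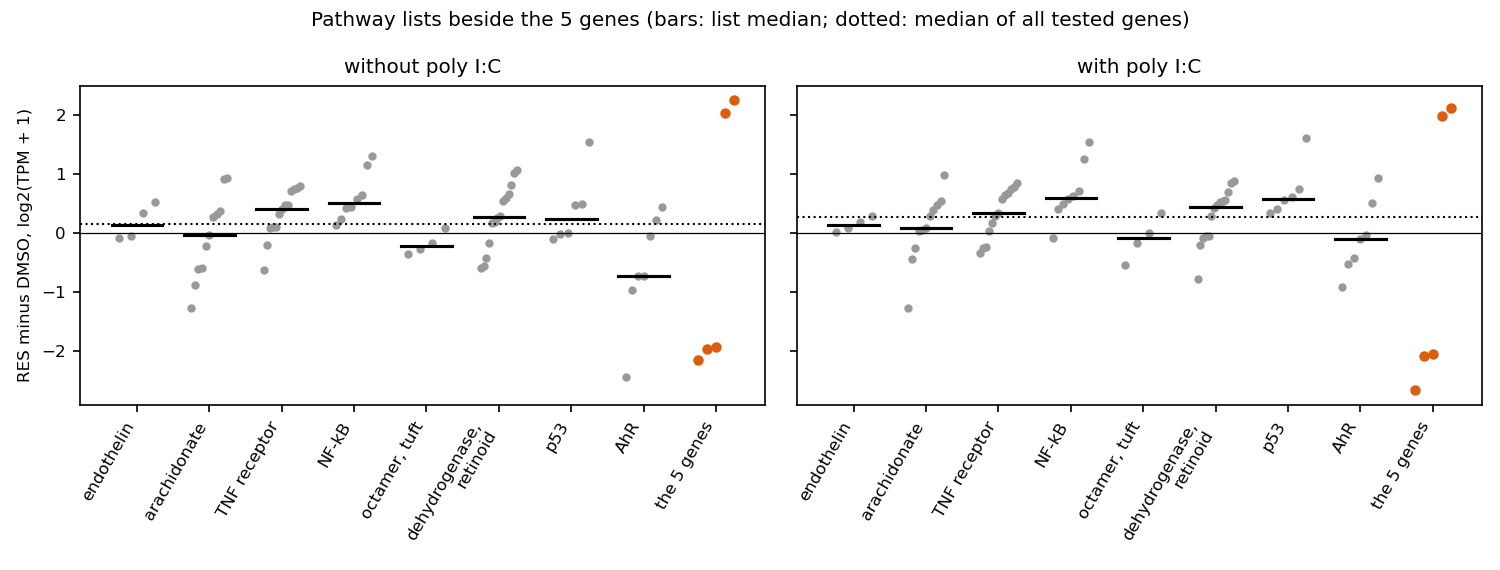
RES minus DMSO on the log2(TPM + 1) scale for the tested genes of 8 pathway lists (grey points, black bars for the list median) beside the 5 genes (orange), without poly I:C (left) and with it (right); dotted lines mark the median of all tested genes. List medians lie between -0.73 and 0.60, and single list genes reach as far as CYP1B1 at -2.43 without poly I:C.

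Genes with the most similar profile were looked for by Pearson correlation of log2(TPM + 1) over the 12 libraries, among 14327 genes. All such r values carry the separation of the RES libraries from the rest and are given as a description. DHRS2, EDN2 and C11orf53 shared HIST1H1C, a linker histone gene, as the most similar gene, with r of 0.984, 0.924 and 0.974. HIST1H1C ran from 58.1 to 78.1 TPM in the DMSO and 2-CM libraries and from 18.5 to 26.9 in the RES libraries, so it too was lower in every RES library. HIST1H2BK (0.973 with DHRS2) and HIST1H2BJ (0.967 with C11orf53) encode core histone H2B variants. Histone genes have close copies whose reads may be shared, so their levels are uncertain. C11orf53 itself was the third gene for DHRS2 (0.965), and DHRS2 the second for EDN2 (0.918). DNMT3L (0.914 with EDN2), a regulator of DNA methyltransferases, and RAB11B-AS1 (0.966 with C11orf53), an antisense RNA, completed the sets.

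PLA2G4C was most like GSTT2B, a glutathione transferase gene with a near-identical copy (0.982), NECTIN4, a cell adhesion gene (0.980), and FAM117A (0.976). GSTT2B ran from 3.46 to 5.74 TPM in the DMSO and 2-CM libraries and from 7.71 to 9.35 under RES. TNFRSF9 was most like IGFBP3, a binding protein of insulin-like growth factors (0.981), the pseudogene ASNSP1 (0.979) and GFI1, a transcriptional repressor of blood cells (0.979). GFI1 did not exceed 0.551 TPM outside the RES libraries and had 1.06 to 1.64 within them. Reads of a pseudogene such as ASNSP1 may come from its parent gene. Among the 5 genes, the 3 lower ones correlated at 0.903 to 0.965, PLA2G4C with TNFRSF9 at 0.891, and pairs of opposite direction at -0.970 to -0.901.

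Since TNFRSF9 is known from T cells, C11orf53 from tuft cells and EDN2 from several epithelia, cell type markers were read in the same libraries. The leukocyte markers PTPRC, CD3E, CD3D and CD2 were at 0 in all 12 libraries, 4 of 8 in that list, and the summed level of the list was 2.54 to 5.51 TPM in the DMSO libraries and 3.51 to 10.2 in the RES libraries. Most of that sum was CD68 (1.68 to 8.80 TPM). The 4 tuft markers summed to at most 2.24 TPM. Of the epithelial markers, KRT8 and KRT18 were high (KRT8 629.8 to 1958 TPM) and the other 4 low, with at most 2.16 TPM for KRT7, 1.23 for EPCAM, 0.596 for CDH1 and 0.243 for KRT19, which was at 0 in 8 libraries. Of 5 fibroblast markers COL1A2 was at 0 in 11 libraries, while COL1A1 had 15.9 to 100.3 TPM, COL3A1 14.2 to 60.1, LUM 1.88 to 32.5 and PDGFRB 4.20 to 11.01. The fibroblast list summed to 126 to 137 TPM under DMSO, 143 to 153 under 2-CM and 84.2 to 92.7 under RES without poly I:C, and to 45.3 to 70.96, 131 to 141 and 47.9 to 63.3 with it. It was thus lower under RES than under DMSO without poly I:C and overlapped with it. Of 5 basal and myoepithelial markers, KRT5 and KRT14 were at 0 in all libraries and TP63 reached at most 0.043 TPM. Only ACTA2 (13.5 to 28.6 TPM) and CNN1 (1.56 to 7.66 TPM) reached 1 TPM. The summed list, almost all from these 2 genes, was higher under RES in both transfections. It summed to 22.8 to 29.1 TPM under DMSO and 32.9 to 35.5 under RES without poly I:C, and to 15.04 to 19.4 and 24.2 to 31.1 with it. The 2-CM libraries were also above DMSO, at 31.5 to 33.0 TPM without poly I:C and 23.8 to 28.1 with it. The acinar list overlapped between DMSO and RES without poly I:C and was higher under RES with it, at 0.813 to 0.994 and 1.72 to 1.75 TPM. With poly I:C the acinar list under 2-CM was above DMSO as well, at 1.07 to 1.62 TPM. The 4 tuft markers were higher under RES with poly I:C (0.340 to 0.855 and 1.02 to 1.10 TPM), and 4 endothelial markers lower without it (1.39 to 1.997 and 0.620 to 1.36 TPM), each overlapping in the other transfection. There 2-CM stood on the same side of DMSO as RES, with tuft markers at 1.07 to 2.24 TPM with poly I:C and endothelial markers at 0.800 to 0.918 without it. In the other transfection 2-CM was on the opposite side of DMSO, at 0.518 to 0.768 TPM for tuft and 1.58 to 1.93 for endothelial markers. Each of these orders sets 2 libraries against 2. Such separation is common for single genes, at 30.2% between poly I:C and depc under RES. Its share among sums of other lists was not counted, so nothing is read from the orders. The part of these lists in the levels of the 5 genes was not tested. Of 7 acinar markers, the secretory products and channel AQP5, MUC7, PIP and STATH were at 0 in all libraries and AMY1A in 10 of 12. The other two were low but present in every library, BHLHA15 at 0.507 to 2.69 TPM and ZG16B at 0.307 to 1.24 TPM. In bulk RNA, fewer expressing cells and less RNA per cell cannot be told apart.

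Libraries held 3.15 to 4.99 gigabases of aligned sequence, and the RES libraries 3.76 to 4.67. The least covered value of the 5 genes, EDN2 in RES depc replicate 1, rested on 70.1 estimated reads. GC content of the transcripts, weighted by level, was 52.5% for DHRS2, 59.4% for EDN2, 53.1% for PLA2G4C and 46.3% for TNFRSF9, against a median of 49.2% over the tested genes with a value, and C11orf53 had none. Replicates of RES depc resembled each other least, with r of 0.943 across genes, and those of 2-CM with poly I:C most, at 0.987.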

How the data were processed

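Polyadenylated RNA of 12 libraries was sequenced as stranded read pairs of 101 bases. Per the submitters' processing notes, bcl2fastq 2.20, HISAT2 2.1.0, StringTie and DESeq2 were used with hg38. Per the file headers, StringTie 2.0.4 quantified GENCODE 32 transcripts, with no strand option, and wrote coverage, FPKM and TPM values for each transcript. The authors' deposited comparison tables, 1 per compound, list for each gene the log2 fold change between transfections with its standard error, the p-value and its adjusted form.

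Transcript TPM was summed to genes (Python 3.11.15). Estimated reads are coverage times length over 101. In R 4.3.3, limma 3.58.1 (trend) fitted the 6 group means to log2(TPM + 1) for the 17185 genes that reached 1 TPM in 2 or more libraries, with 6 residual degrees of freedom. A gene was called where its p, adjusted by Benjamini-Hochberg over all tested genes of the contrast, was under 0.05, and adjusted p-values not credited to the authors are from limma. The script was tested on simulated data. A log2(TPM + 1) difference understates changes of low genes.

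The 5 genes and the lists were chosen with earlier results of these data known. Named beside them were direct partners of a member, list genes called under RES, the 3 most similar genes, chromosome neighbours and OAS1, IFIT1 and MX1. Alternatives changed the scaling, the unit, the filter, the pseudocount, the model and the libraries. Sequences are from RefSeq (GRCh38.p14).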

Additional observations from a re-analysis of the deposited data

Results flagged for a closer look

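The EDN2 estimates with poly I:C had opposite signs under 2 compounds, 0.38 under DMSO and -0.38 under 2-CM. Neither was called (limma adjusted p = 0.582 and 0.299). Both poly I:C libraries were above both depc libraries under DMSO, as for 11.5% of all genes, and below them under 2-CM, as for 23.9%. The share of all genes with both patterns together was not counted. The log2 effects differed by 0.76, 2-CM being lower, whereas the median gene's effect was 0.68 higher under 2-CM. The difference was tested as an interaction in limma and was not called (SE 0.43, adjusted p = 0.231). Over 22 alternatives the difference, 2-CM minus DMSO, lay between -1.71 and -0.50, with adjusted p from 0.0418 to 0.526. The lowest came with the covariate, which called 9896 of 17185 genes. With groups of 2 no single library can be set against the rest of its group.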

How the results depend on the processing

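Over 22 alternatives the RES against DMSO values of the 5 genes ran from -3.11 to -1.75 for DHRS2, EDN2 and C11orf53 and from 1.71 to 2.71 for PLA2G4C and TNFRSF9. Their direction was fixed by the choice of the genes, and several alternatives leave a difference as it was by construction, so these ranges are no sign of stability. Counts of called genes depended far more on the processing. Without poly I:C the 177 calls of RES against DMSO became 46 with FPKM, 26 with upper-quartile scaling (12 higher, 14 lower), 13 with median-of-ratios scaling, 396 without the filter, 94 at a TPM minimum of 5, 115 with estimated reads, 4785 with the covariate and 0 when only the groups compared were fitted. With poly I:C the 27 calls (12 higher, 15 lower) became 16 with FPKM, 17 with upper-quartile scaling (4 higher, 13 lower) and 43 without the filter, with 6452 under the covariate and 0 with only the groups compared. Median-of-ratios scaling gave 23, 5 higher and 18 lower.

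For poly I:C under DMSO, 701 calls (137 higher, 564 lower) became 136 with FPKM (94 higher), 138 with upper-quartile scaling (96 higher), 136 with median-of-ratios scaling (107 higher), 244 with estimated reads, 6567 with the covariate and 6 with only the groups compared. Under 2-CM, 8475 (6440 higher, 2035 lower) became 649 without the filter and 12902 with the covariate, and median-of-ratios scaling called 3425 higher and 4097 lower. Under RES, 76 (34 higher) became 36 with FPKM (32 higher), 38 with upper-quartile (36 higher) and 41 with median-of-ratios scaling (39 higher), 178 without the filter, 125 at a TPM minimum of 5, 6243 with the covariate and 0 with only the groups compared. For the difference between responses, 2 became 55 without the filter, 0 at a TPM minimum of 5 and with a pseudocount of 0.1, 1 with estimated reads and 9896 with the covariate. The covariate is taken from the residuals of the fit itself and leaves the log2 values as they were.

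Of the 5 genes, 1 was called under 2-CM with median-of-ratios scaling (EDN2, -1.15), with the covariate and with only the groups compared (TNFRSF9, 0.92 in both), where 7522, 12902 and 11850 of 17185 genes were called, and 1 for the difference between responses with the covariate (EDN2, -0.76, limma adjusted p = 0.0418), where 9896 genes were called. Signs turned as follows, in the order FPKM, upper-quartile, median-of-ratios, estimated reads where all 4 did. Under 2-CM, C11orf53 was at -0.044, -0.49, -0.70 and -0.058, and PLA2G4C at -0.13, -0.30 and -0.32 in the last 3. For the difference between responses DHRS2 was at -0.21, -0.63, -0.92 and -0.26, PLA2G4C at -0.093, -0.30 and -0.25 in the last 3, and TNFRSF9 at -0.093 and -0.31 with upper-quartile and median-of-ratios scaling. Under DMSO, DHRS2 was at 0.026 with FPKM, 0.040 with median-of-ratios scaling and 0.078 with estimated reads, and PLA2G4C at 0.0053 with median-of-ratios scaling. TNFRSF9 in 2-CM against DMSO with poly I:C was at -0.023 and -0.12 with upper-quartile and median-of-ratios scaling. In that contrast C11orf53 ran from -0.80 to 0.061 over 22 alternatives and DHRS2 from -0.96 to -0.058. EDN2 ran there from -2.01 to -1.15 and PLA2G4C from 0.26 to 1.14. The cause was not tested.

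Leaving out 1 library at a time gave 25 to 908 called genes for poly I:C under DMSO, 37 to 10157 under 2-CM, 17 to 53 under RES, 1 to 3 for the difference, and 0 to 67 and 0 to 27 for RES against DMSO without and with poly I:C. The counts for poly I:C under 2-CM were 37 to 46 without 1 of the 4 2-CM libraries. It made none of the 5 genes called for poly I:C. The lone library left in a group is then assumed to vary like the other groups. Estimates that turned sign ran from -0.0060 to 0.80 for TNFRSF9 under DMSO (negative without DMSO depc replicate 2), from -0.085 to 0.034 for DHRS2 and -0.074 to 0.28 for C11orf53 under 2-CM, and, under RES, from -0.48 to 0.0057 for DHRS2, -0.53 to 0.27 for EDN2, -0.39 to 0.042 for PLA2G4C and -0.19 to 0.74 for TNFRSF9.

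Replicate numbers were not taken to pair the libraries, because 1 group went against the others. The deviations of same-numbered libraries correlated positively, at 0.15 to 0.76, in all 10 pairs among 5 of the groups, and negatively, at -0.80 to -0.31, in the 5 pairs with RES poly I:C. With a replicate block the calls numbered 346, 39 and 1 for poly I:C under DMSO and RES and for the difference, and 43 and 9 for RES against DMSO without and with poly I:C. With 2 libraries a group, the standard errors of 0.16 to 0.40 limit what could be detected, most for TNFRSF9.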
